A study of Mus musculus with 384 samples.

Results

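The genes described here encode the protein subunits of the cytosolic ribosome, and they were read in regulatory T (Treg) cells sorted one by one from mouse ear skin. Members were the symbols of the deposited gene list that begin with Rpl or Rps and a number (with an optional letter a, x, y or l and further digits), together with Rpsa, Rplp0, Rplp1 and Rplp2. Symbols with "-ps" and the Rps6k kinases were left out. The rule found 89 of 50556 symbols, 53 of the large subunit and 36 of the small subunit. A count in any well was found for 86 of the 89, and Rpl10l, Rpl32l and Rps3a3 had none. With 0 of the kept cells, detection in up to 1.49% of cells is allowed by counting error.

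Mice under 2.5% isoflurane received 5% imiquimod or vehicle 3 times on both faces of the ear from day 0, and cells were sorted on day 3. There were 2 mice per treatment. The labels give no strain, genotype, sex or age, and none ties a plate to a mouse. Single cells filled 87 wells on each of 4 plates, 2 of vehicle and 2 of imiquimod. Each plate also held 4 wells of 10 Treg cells and 5 wells with no cell. The labels give these control wells no treatment, so a control well on "imiquimod plate 1" is named for its place only. The plate was the replicate, and p-values measure the spread between plates.

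The ribosome reads messenger RNA in its small subunit and joins amino acids in its large subunit. Each cytosolic ribosome carries nearly every member in a single copy, and cells usually make the proteins in step. Their mRNAs are short, abundant and stable, and begin with a run of pyrimidines, the 5′ TOP element, through which mTORC1 and LARP1 set how strongly they are translated. T cells raise ribosome production when they are activated.

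A single-cell well was used where it had 500 or more genes and 10000 or more counts. The kept cells numbered 62 and 58 cells of vehicle plates 1 and 2 and 38 and 44 cells of imiquimod plates 1 and 2. Kept cells held 47481 to 5946386 counts and 10-cell wells 710021 to 9159522. Summed over the plate's kept cells, the 16 Treg and T cell markers reached 15753 and 12015 CPM (counts scaled to a common library total) on the vehicle plates, against 10592 and 8666 CPM on the imiquimod plates. Of these 16, 3 T cell markers were at 0 in all kept cells. The 40 markers of other skin and blood cells together reached 1044 to 2009 CPM, and 6 of the 40 were at 0 in all kept cells. A count in at least 1 Treg marker was found in 85.1% of kept cells and in at least 1 T cell marker in 92.6%. For the 7 macrophage and dendritic markers it was 62.4%.

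A pyrimidine run near the annotated transcript start is shown because the family's mRNAs are known to begin with one. Start-site sequences came from RefSeq (GRCm38.p6, an older build than the mm39 of the counts), which matched 64 of the 89 members by symbol. A run of at least 8 bases, each C or T and the first of them C, was searched on the gene's strand from 20 bases before to 50 bases after each annotated start. It was found for 49 of the 64 members, 76.6%, against 22.7% of all 27025 genes in the table. The lines below show 30 bases around the run for Rpl4, one of the highest members, Rps26, Rpl26, Rpl35 and Rpl15, whose fold changes with imiquimod were among the highest, Rpl5 and Rpl11, which bind 5S rRNA together, and Rps6, the substrate of S6 kinase. Capitals mark the run, and all lines read 5′ to 3′.
Rpl4, chr9:64173362-64173391, plus strand: tgacaagtCTTTCCTTTTCCTgtgggagca
Rps26, chr10:128626484-128626513, minus strand: agccgccggatCCTCTTTCgagtcttggct
Rpl26, chr11:68901580-68901609, plus strand: cgtgtagttCTCTTTCCTTTTgcggccatc
Rpl35, chr2:39005115-39005144, minus strand: gccccgCCCTTTCCTCTTTCTCTCgaacca
Rpl15, chr14:18270967-18270996, minus strand: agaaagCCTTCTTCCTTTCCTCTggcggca
Rpl5, chr5:107900498-107900527, plus strand: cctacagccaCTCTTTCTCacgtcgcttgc
Rpl11, chr4:136053357-136053386, minus strand: cggaagtCTCCCTCTCTCTTCCTgttctcc
Rps6, chr4:86857349-86857378, minus strand: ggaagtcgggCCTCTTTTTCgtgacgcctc

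The runs in the lines shown had from 8 bases (Rps26) to 18 (Rpl35). Their first bases lay from -20 (Rpl5) to 23 (Rpl26) relative to the annotated start. A run found by this search therefore need not be the 5′ TOP element itself. CGGAAG on either strand lay within the 300-base window (250 bases before to 50 after the start) of 42 of the 64 members, 65.6%, against 18.8% of all genes. TATAAA lay within the 50 bases before the start of 1 of the 64 members, 1.56%, against 3.15% of all genes. These matches are descriptions of the letters and were not tested. The median log2 fold change with imiquimod, described below, was 1.81 for the 47 tested members with a pyrimidine run and 1.77 for the 13 without one.

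Most kept cells showed a small part of the family. Among kept cells, 7 had a count in no member, 84 in 1 to 9, 70 in 10 to 39 and 41 in 40 or more, and the highest was 83. The median cell had 12 members with a count and 0.852% of its counts in them. Cells with 1 to 9 members had a median of 711 genes in all and cells with 40 or more a median of 2838 genes, so the number of members followed the number of genes. Within a plate, Spearman's rho between members and genes per cell was 0.742 and 0.718 on the vehicle plates, against 0.697 and 0.766 on the imiquimod plates. This is a description over 38 to 62 cells that share the depth of each well.

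**Figure D1:**
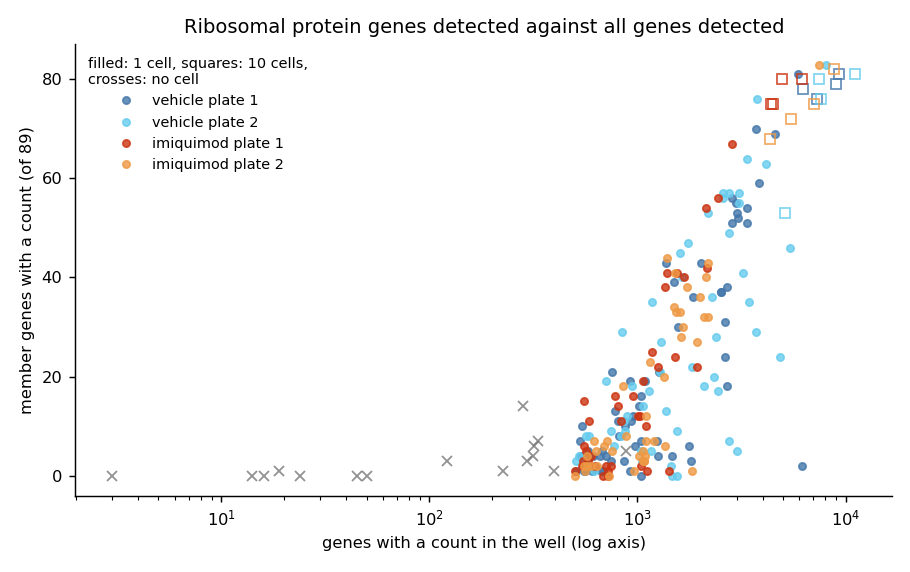
Each point is a well, with the number of genes with a count on a log axis (x) and the number of the 89 members with a count (y). Filled points are kept single cells by plate, squares 10-cell wells and crosses no-cell wells with a count. Members climbed with genes in single cells, the 10-cell wells lay between 53 and 82 members, and no no-cell well passed 14.

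In cells with few members, the counts came mostly from 1 gene. The member with most counts gave a median of 60.3% of all member counts in cells with 1 to 9 members and 11.5% in cells with 40 or more. Rplp0, the core protein of the ribosomal stalk, was that gene in 29 cells, Rps4x in 17, Rpl3 in 16 and Rpl4 in 15. Few cells with many genes lacked the family. Of 51 cells with at least 2000 genes, 3 had under 10 members (2 to 7), on vehicle plates 1 and 2, with 0.0822% to 0.112% of counts in members. These 3 cells showed 3 or 4 of the 16 Treg and T cell markers, where the other 48 showed a median of 9. They were singled out after their values were seen.

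Detection of single members was spread widely but had a common band. A count was found in at least 10% of kept cells for 79 members, with a median of 25.2% and a range from 12.9% to 44.6%. Rplp0 was detected in the most cells, 46.8% and 46.6% on the vehicle plates, against 39.5% and 43.2% on the imiquimod plates. Rpl3, a protein of the peptidyl transferase region, was detected in 42.1% of all kept cells, Rps4x, the X-linked copy of eS4, in 40.6% and Rpl41, the smallest ribosomal protein, in 38.6%. Over all kept cells together, no member passed 44.6%, and the highest value on a single plate was 50.0%, for Rpl3 on vehicle plate 2.

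Levels are given as CPM after TMM scaling (edgeR's correction for composition) in the summed kept cells of a plate, and are compared between genes only per kilobase of the principal transcript. Rplp0 and Rps4x stood highest per kilobase, with means of 1218 and 1204 CPM per kb over 4 plates. Rplp0 led on vehicle plate 1 (714 CPM per kb) and imiquimod plate 2 (1126), and Rps4x on vehicle plate 2 (486) and imiquimod plate 1 (2843). Rpl8 at 759 and Rpl4 at 690 CPM per kb were also among the highest. Over the 79 members in at least 10% of cells, the median level was 104.9 and 101.8 CPM per kb on the vehicle plates, against 639 and 182.3 CPM per kb on the imiquimod plates. Spearman's rho between the percent of cells with a count and the level per kb was 0.786 over the 86 members with a count, which share the same libraries. The order of members by CPM was similar on each pair of plates, with rho from 0.758 to 0.864 over 83 members. For this order the CPM were not divided by length, which is the same on every plate.

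**Figure D2:**
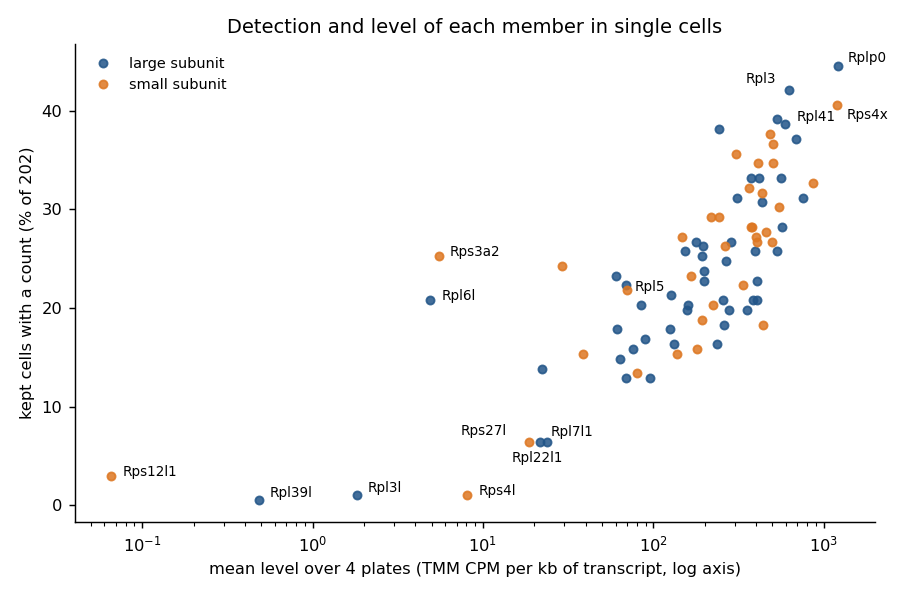
Each of 86 members is placed by its mean TMM CPM per kb over the 4 plates on a log axis (x) and by the percent of kept cells with a count (y), coloured by subunit. Rplp0 is at the top right with 44.6% of cells, the paralogs Rpl3l, Rps4l and Rpl39l lie near the foot, and Rpl6l and Rps3a2 lie to the left of the other members of like detection.

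The ribosomal stalk, which recruits the GTPases of translation, is built from Rplp0 with pairs of Rplp1 and Rplp2. On vehicle plates 1 and 2 and imiquimod plates 1 and 2, Rplp1 stood at 145.7, 77.5, 689 and 217.8 CPM, and was detected in 28.2% of cells. Rplp2 stood at 67.1, 42.0, 561 and 95.01 CPM in the same order, with detection in 22.8% of cells. Rpsa, the small subunit protein also known as the laminin receptor precursor, stood at 293.4, 378.8, 2183 and 353.3 CPM. Each of these 3 genes was highest on imiquimod plate 1, and Rpsa on imiquimod plate 2 lay between the vehicle plates.

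Rpl5 and Rpl11 also bind the p53 inhibitor Mdm2. Per kilobase, the mean level over 4 plates was 68.9 CPM per kb for Rpl5 and 533 CPM per kb for Rpl11. This rests on transcript lengths of 2045 bases for Rpl5 and 833 for Rpl11. Before division by length, the means were 140.9 and 444.3 CPM. Rpl11 stood at 210.4, 108.9, 1196 and 261.6 CPM over the 4 plates in the same order. Rpl5 stood at 127.9, 177.6, 115.6 and 142.5 CPM, with no plate of imiquimod above both vehicle plates. On imiquimod plate 1, the top cell alone held 76.0% of the Rpl11 counts and 81.3% of the Rpl5 counts. Rps6 stood at 202.1, 164.6, 1087 and 320.4 CPM. Rps19 and Rps27a, a fusion of ubiquitin with a ribosomal protein, were detected in 28.2% and 26.2% of cells. Rpl38, which is known for its part in the translation of Hox mRNAs, was detected in 26.7% of cells at a mean of 178.8 CPM per kb.

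Paralogs were detected in fewer cells than the usual copies. Rpl22l1, Rps27l and Rpl7l1 were each detected in 6.44% of cells, against 13.9% for Rpl22, 27.2% for Rps27 and 30.7% for Rpl7. Per kilobase, Rpl22l1 had a mean level of 23.9 CPM per kb, against 22.1 CPM per kb for Rpl22. Rps4l was detected in 2 cells, Rpl3l in 2 and Rpl39l in 1, against 82 for Rps4x, 85 for Rpl3 and 34 for Rpl39. Rpl10l, a testis paralog of the X-linked Rpl10, was at 0 where Rpl10 was detected in 26.7% of cells.

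Some members are annotated as processed pseudogenes and share long stretches with a parent, so their counts are uncertain where the counting could split reads. The 3 described here were chosen for that annotation. Rpl6l had counts in 42 cells, all of which also had Rpl6, and its counts came to 0.714% of those of Rpl6. Rps3a2 had counts in 51 cells, all with Rps3a1, at 0.953% of the counts of Rps3a1. Rps12l1 had 9 counts in 6 cells, all with Rps12. These 3 raise the number of members per cell without adding to the level.

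Wells without a cell also held member counts. Of 20 no-cell wells, 4 had no count at all and 10 had a count in a member, with at most 14 members in a well. Members took 106087 of 3954840 counts in no-cell wells, 2.68%. By plate, the share in no-cell wells was 0% and 1.29% for vehicle plates 1 and 2 and 2.85% and 4.91% for imiquimod plates 1 and 2, where the summed kept cells had 1.20%, 1.29%, 3.65% and 1.81%. It was above that of the cells on imiquimod plate 2 alone. The 5 no-cell wells of vehicle plate 1 had 0 member counts of 908 in all, which allows a share of up to 0.330%. On imiquimod plate 1, 1 no-cell well had 42 counts in members, all in Rps28, which made up 23.5% of its counts (95% Wilson interval 17.9% to 30.2%). Intervals and limits cover counting error only, since reads were amplified without molecular identifiers.

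Single genes gave large parts of these counts. Rpl19 had 29998 counts in 3 no-cell wells and Rps2 had 10597 in 2 (chosen after their values were seen). Rplp0, the most widely detected member, had 481 counts in 3 no-cell wells. A count was found in no no-cell well for 57 of the 89 members, and Rpl3 and Rpl8 were among them. On vehicle plate 2, 1 no-cell well would have passed the limits set for cells, with 885 genes, 1527760 counts and 5 members at 0.388% of its counts. Single-cell wells that were not kept but had a count had a median of 2 members and 0.258% of counts in members.

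Treatment was compared first in the share of each cell's counts. The median share was 0.566% and 0.780% on vehicle plates 1 and 2 and 2.52% and 0.775% on imiquimod plates 1 and 2. By this median imiquimod plate 1 stood apart and imiquimod plate 2 lay between the vehicle plates. The difference of treatment means was 0.972 percentage points, with p = 0.667 in an exact two-sided permutation test of 2 plates against 2, for which the smallest possible p is 0.33. Without imiquimod plate 1 the difference was 0.102 percentage points. In the summed counts of a plate the share was 1.20% and 1.29% in vehicle and 3.65% and 1.81% in imiquimod, so that both imiquimod plates lay above both vehicle plates (difference 1.48 points, exact permutation p = 0.33). The same order held for the mean over cells (2.20 points) and for the median over cells with 1000 or more genes (1.87 points), each with exact permutation p = 0.33, the smallest this design allows. Shares over 5% were found in 11 of 38 cells of imiquimod plate 1, in 3 of 44 of imiquimod plate 2 and in none of the 120 vehicle cells.

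**Figure D3:**
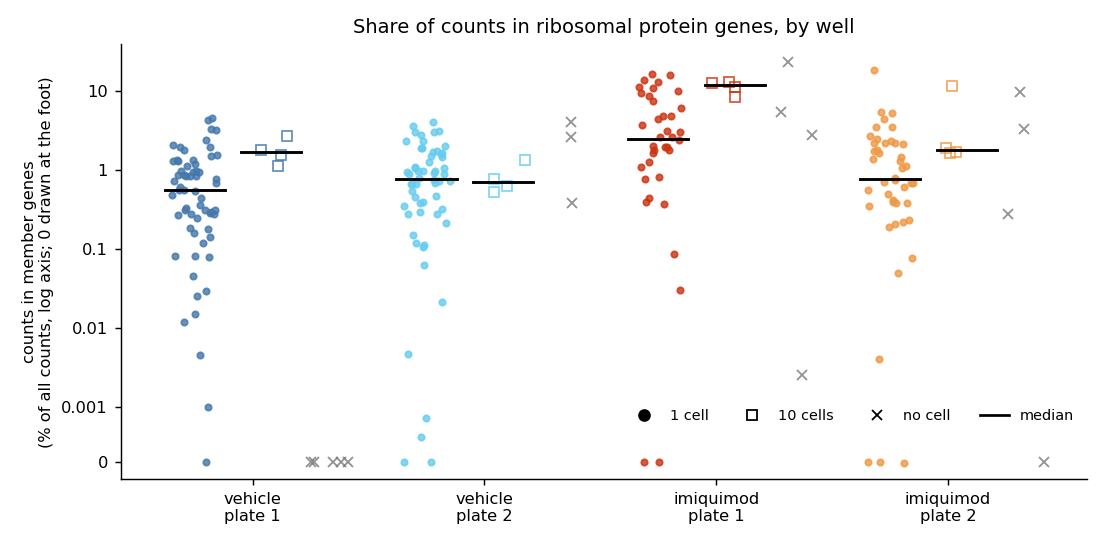
Points give the percent of a well's counts in member genes on a log axis (y; wells at 0 are drawn at the foot) for each of 4 plates (x): filled circles for kept single cells, squares for 10-cell wells, crosses for no-cell wells with a count, and bars for medians. Single cells of imiquimod plate 1 reached a median of 2.52% and its 10-cell wells 12.1%, while the other plates had medians of 0.566% to 0.780% and 0.704% to 1.82%.

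The number of members per cell did not follow the share. Its median was 11 and 18 on the vehicle plates, against 11.5 and 7 on the imiquimod plates, so the treatments overlapped (difference -5.25 members, exact permutation p = 0.667). Cells thinned to 100000 counts had medians of 7 and 10.5 on the vehicle plates, against 11 and 5.5 on the imiquimod plates, after 1, 0, 3 and 0 shallower cells were left out. Total genes differed too, with medians of 1040 and 1503 on the vehicle plates, against 975 and 1093 on the imiquimod plates. Among cells with 1000 to under 2000 genes, the median number of members was 14 on each vehicle plate and 22 and 20 on the imiquimod plates, over 15 to 23 cells a plate. Among cells with 500 to under 1000 genes, it was 4 and 8 on the vehicle plates, against 3 on each imiquimod plate. Among cells with 2000 or more genes, it was 51 and 46 in vehicle and 55 and 40 in imiquimod, where the treatments overlapped. That class held 19 and 23 cells on the vehicle plates, against 4 and 5 on the imiquimod plates. Over all cells with 1000 or more genes, it was 36.5 and 28.5 in vehicle and 24 and 27.5 in imiquimod (difference -6.75, exact permutation p = 0.33). The order of the treatments was thus not the same in each class. The share of cells in each class also differed between plates, and its part in the difference of -6.75 was not tested.

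The balance of the subunits overlapped between treatments. Large subunit members had 1.63 and 1.51 times the counts of small subunit members on the vehicle plates, against 1.33 and 1.57 times on the imiquimod plates. The difference was -0.124 (exact permutation p = 0.667).

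In the fit of all genes on plate sums, no gene passed. Of 14462 genes tested by edgeR's quasi-likelihood test, 0.0% had an adjusted p under 0.05, and the smallest adjusted p was 0.420. The same was true of the 83 members tested. At an unadjusted p under 0.05, 1669 of all genes and 7 members were found, the 7 all higher with imiquimod, beside 1.72% of all genes higher at that level. DESeq2 on the same sums gave 33 members an adjusted p under 0.05, all higher with imiquimod, where it placed 6.69% of all genes there. limma on the plate means of log2(CPM + 1) per cell called 0 members and 0 genes, with 1694 genes and 1 member, lower with imiquimod, at an unadjusted p under 0.05. The members called by DESeq2 were called by neither edgeR nor limma.

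Member fold changes were mostly positive in the sums. The log2 fold change of imiquimod over vehicle was positive for 81 of 83 members, with a median of 1.86, where 46.6% of all genes tested were positive and their median was -0.26. The median was 1.90 for 49 large subunit members, 47 of them positive, and 1.79 for 34 small subunit members, all positive. Both imiquimod plates lay above both vehicle plates for 62 members, beside 13.7% of all genes, and below them for none, beside 31.1% of all genes. Imiquimod plate 1 was the highest plate for 70 of 83 members. With DESeq2 size factors in edgeR, the median of all genes moved from -0.26 to 0.11 and 82 of 83 members were positive, and the members' median lay 2.12 above that of all genes with TMM and 2.35 above it with size factors. In such sums, more cells with these mRNAs and more of them per cell cannot be told apart. Median levels over the 83 were 74.9 and 78.2 CPM on the vehicle plates, against 497 and 153.4 CPM on the imiquimod plates.

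Detection was lower in imiquimod cells for most members. Of the 83 tested members, 76 had a count in a smaller percent of imiquimod than vehicle cells, beside 76.7% of all genes tested. The median member was detected in 25.8% and 27.6% of cells on the vehicle plates, against 18.4% and 20.5% on the imiquimod plates. The cell with most counts of a member held a median of 22.5% and 21.6% of that member's plate sum on the vehicle plates, against 33.5% and 29.6% on the imiquimod plates. On the scale of limma's mean of log2(CPM + 1) per cell, where a cell without a count weighs as much as a cell with many, 40 of 82 members were positive with a median of -0.00, where 27.8% of all genes were positive. Summed counts thus gave mostly positive fold changes, while this log scale gave no common direction, with a median of all genes of -0.15. The mean share of counts over cells, described above, was higher with imiquimod by 2.20 percentage points.

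**Figure D4:**
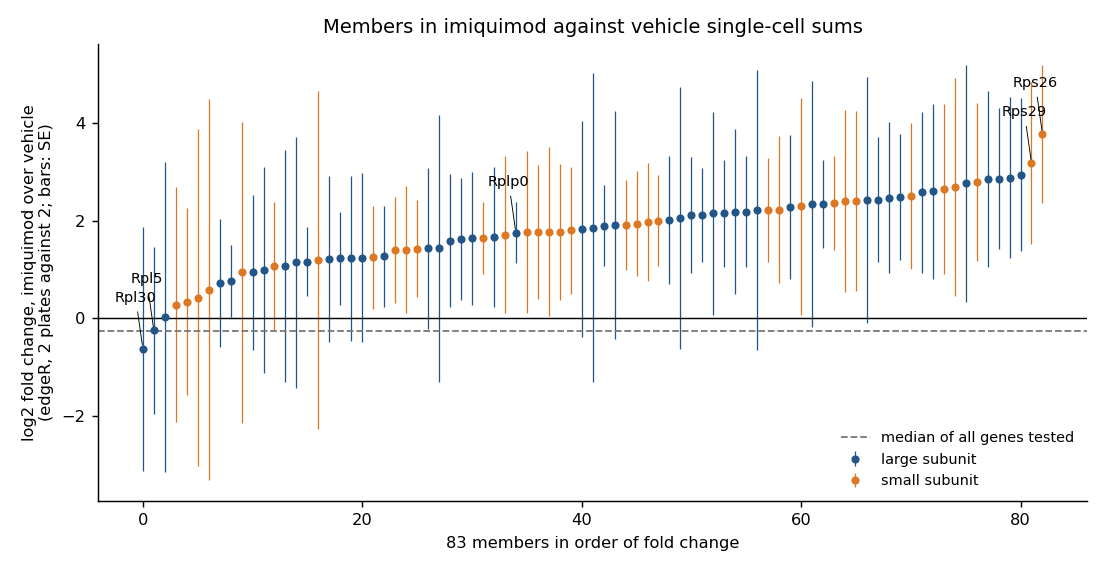
The 83 tested members in order of their log2 fold change of imiquimod over vehicle (y, edgeR on 2 plates against 2, bars show SE), coloured by subunit, with the dashed line at the median of all genes tested (-0.26). 81 members lie above 0, and for none was the adjusted p under 0.05.

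The 6 members of highest fold change were Rps26, Rps29, Rpl26, Rpl35, Rpl24 and Rpl15. Rps26, which sits at the mRNA exit channel of the small subunit, stood at 42.6 and 48.7 CPM on the vehicle plates, against 1145 and 113.3 CPM on the imiquimod plates (log2 fold change 3.78 ± 1.42 SE, edgeR adjusted p = 0.420). It was detected in 19.4% and 24.1% of vehicle cells by plate and in 47.4% and 22.7% of imiquimod cells. Rps29 stood at 38.7 and 39.1 against 596 and 113.1 CPM (3.19 ± 1.66). Rpl35 stood at 48.2 and 40.1 against 497 and 156.5 CPM (2.89 ± 1.65). Rpl26 had a log2 fold change of 2.95 ± 1.57, Rpl24 one of 2.86 ± 1.45 and Rpl15 one of 2.86 ± 1.81. For all 6 the imiquimod plates lay above the vehicle plates. The 6 were chosen by fold change from the same plate values, which favours this order, so it is no separate evidence. The order held for 62 of the 83 members tested and for 13.7% of all genes tested. For all 6 the distance between the imiquimod plates was larger than that between the vehicle plates.

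Members at an unadjusted p under 0.05 included some of high level. Rplp0 stood at 970 and 542 CPM on the vehicle plates, against 3577 and 1529 CPM on the imiquimod plates (1.76 ± 0.63, edgeR adjusted p = 0.420). Rps4x stood at 660 and 473 against 2771 and 792 CPM (1.65 ± 0.74). Rpl7 had a log2 fold change of 2.12 ± 0.96 and Rpl8 one of 1.90 ± 0.83. Rps26 was also among the 7. The SEs of these 5 named members were smaller than the median SE over members, 1.59, which their choice by unadjusted p favours.

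At the other end stood, among others, Rpl30, Rpl5, Rpl22l1, Rps24 and Rps27l. Rpl30 stood at 30.9 and 117.8 CPM on the vehicle plates, against 56.8 and 39.9 CPM on the imiquimod plates (-0.62 ± 2.50), and was detected in 1 cell in 38 on imiquimod plate 1, 2.63%. Rpl5 had a log2 fold change of -0.24 ± 1.71, which was 0.19 with DESeq2 size factors. Rpl22l1 (0.02 ± 3.18), Rps24 (0.34 ± 1.92) and Rps27l (0.42 ± 3.46) were near 0 with SEs several times their size. None of these 5 had plates that separated the treatments, which their choice by low fold change favours.

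The fold changes differed with the plate left out. Without imiquimod plate 1, the median member fold change was 1.03 with 75 of 85 members positive. Without imiquimod plate 2, edgeR called 10 members higher (Rpl11, Rpl24, Rpl26, Rplp0, Rps26, Rps29, Rps4x and Rpsa among them), beside 2.1% of all genes, where the single imiquimod plate took its spread from vehicle. Other short mRNAs also took a larger share on imiquimod plate 1. Non-member protein-coding genes with a principal transcript under 1000 bases (2201 genes) took a median of 2.05% and 2.27% of a cell's counts on the vehicle plates, against 5.92% and 2.58% on the imiquimod plates. Members have a median transcript length of 871 bases, against 2843 bases for all genes tested, and 71 of the 83 were in the shortest of 5 length classes of about equal size. Without the members, the median log2 fold change was 0.69 in that class and then 0.07, -0.26, -0.49 and -0.78 in order of length. The part of transcript length in the members' fold changes was not tested. Plates are nested in treatments, so a plate and its treatment cannot be told apart.

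Other parts of the translation machinery are given by their counts and medians, with no gene called by edgeR in any of these lists. Of 5 ribosomal proteins outside the symbol rule, all had a positive fold change, with a median of 2.40. The 5 include Rps27rt, which had counts in 35 cells, 34 of them with Rps27, at 1.51% of the counts of Rps27. Its counts are uncertain in the way described for the processed pseudogenes. Fau, a fusion that yields eS30, had a log2 fold change of 2.64 ± 1.21, and Rack1, a scaffold on the small subunit, stood at 368.99 and 146.3 against 1107 and 579 CPM. Mitochondrial ribosomal proteins had a median of 1.87 with 50 of 73 positive, and symbols of ribosomal protein pseudogenes 1.74 with 69 of 75 positive. Elongation factors had a median of 1.49 (6 of 8 positive), genes that handle nascent chains 1.34 (11 of 13), other mRNAs with a TOP element 0.56 (12 of 15), initiation factors 0.45 (22 of 38), ribosome biogenesis genes 0.40 (26 of 39) and RNA polymerase I genes 0.33 (10 of 14). The mTORC1, S6 kinase and Myc list had a median of -0.31 (11 of 24), and mRNAs of the mitochondrial genome 0.24 (4 of 8).

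Among highly expressed partners, Eef1a1 stood at 1817 and 1359 CPM on the vehicle plates, against 4332 and 1272 CPM on the imiquimod plates, and Eef2 at 1216 and 1720 against 1031 and 1185 CPM. Both deliver or move tRNA on the ribosome and both carry a TOP element. The treatments overlapped for Eef1a1, while both imiquimod plates lay below both vehicle plates for Eef2 (-0.41 ± 0.61).

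Wells of 10 cells showed nearly the whole family. The 4 wells of vehicle plate 1 had 76 to 81 members with a count, those of vehicle plate 2 had 53 to 81, those of imiquimod plate 1 had 75 to 80 and those of imiquimod plate 2 had 68 to 82. All 4 plate medians (78.5, 78, 77.5 and 73.5) were above those of single cells, by 65 members on average (exact two-sided sign-flip p = 0.13, the smallest that 4 plates allow). After thinning to 100000 counts the medians were 73, 71.5, 74.5 and 71, 64 members above those of single cells thinned alike. A well of 10 cells pools the members of its cells, so this direction was largely set by the design. Thinning evens the counts but not the number of cells. A count in all 16 wells was found for 31 members, and in at least 13 wells for 79.

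The share of counts in 10-cell wells differed between plates. Its median was 1.70% and 0.704% on vehicle plates 1 and 2 and 12.1% and 1.82% on imiquimod plates 1 and 2. It was above the single-cell median on 3 of 4 plates, and vehicle plate 2 was the exception (exact sign-flip p = 0.25). Against single cells with 1000 or more genes, or all single-cell wells with any count, it was above on all 4 plates (exact sign-flip p = 0.13), by 0.024 and 0.00029 points on vehicle plate 2. The 10-cell wells of that plate held 5800 CPM of the markers of other cells, 4010 of it from fibroblast markers, against 2009 CPM in its single cells. The part of those cells in the share was not tested. Without imiquimod plate 1 the mean difference was 0.701 percentage points, against 2.92 with it. The 4 wells of imiquimod plate 1 held 8.39% to 13.1%. Short non-member genes took 12.1% to 17.0% of counts in those 4 wells and 1.51% to 4.78% in the 8 wells of the vehicle plates. On imiquimod plate 2, 1 well stood apart from its plate, with 14.9% of counts in short non-member genes and 11.65% in members. The other wells of 10 cells there had 3.40% to 4.02% and 1.64% to 1.93%. The part of the short non-member genes in the members' share was not tested.

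**Figure D5:**
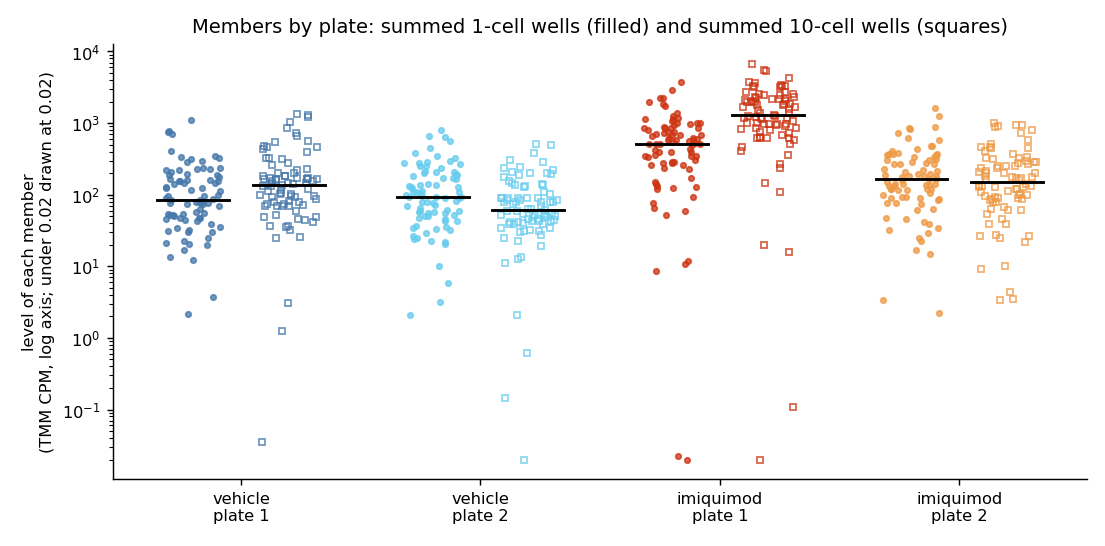
Each point is 1 of 82 members at its TMM CPM on a log axis (y), in the sum of kept single cells (filled) and of 10-cell wells (squares) of each plate (x); bars show medians, and values under 0.02 are drawn at 0.02. The family stood highest on imiquimod plate 1 in both kinds of well.

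In the fit of 10-cell against single-cell sums with the plate as a block, 0.0% of 11452 genes had an adjusted p under 0.05 in edgeR, and 0 of 82 members. Unadjusted, 2 members had p under 0.05, beside 1.98% of all genes. DESeq2 called Rpl27 higher and Rpl7l1 lower, beside 8.51% of all genes. The log2 fold change of 10-cell over single-cell sums was positive for 63 of 82 members with a median of 0.26, where the median of all genes was -0.28. Members were higher in the 10-cell sum for 64 and 21 of 82 on the vehicle plates and for 74 and 38 on the imiquimod plates, so the plates disagreed. Without imiquimod plate 1, 31 of 83 members were positive with a median of -0.24, where 39.2% of all genes were positive with a median of -0.50.

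A level that held on each of 4 plates was found for few members. Of 82 members, 6 were higher in 10-cell wells on all 4 plates, beside 3.83% of all genes, and Rpl27, Rpl38, Rpl39 and Rpl41 were among them. Rpl7l1 was lower on all 4, 1 of 82 beside 7.69% of all genes. Rpl27, a large subunit protein, stood at 170.8, 88.9, 1269 and 120.3 CPM in 10-cell sums against 56.3, 35.7, 235.7 and 61.7 CPM in single-cell sums of the same plates (1.57 ± 0.85). Rpl7l1, a protein of ribosome assembly, stood at 47.1, 33.3, 76.2 and 86.1 CPM in single-cell sums, and at 0.0357, 0, 0.109 and 53.8 CPM in 10-cell sums (-9.22 ± 4.03). Its counts came from 13 single cells and 4 of 16 10-cell wells. Among single cells, the top cell held 84.8% and 92.7% of its counts on the vehicle plates, against 99.9% and 76.0% on the imiquimod plates.

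Other members toward the ends of this comparison had wide errors. On the upper side stood Rpl22l1 (1.46 ± 2.52), Rps28 (1.46 ± 1.00), Rpl39 (1.23 ± 1.29) and Rpl22 (1.124 ± 1.56). On the lower side stood Rps27l (-1.60 ± 2.96), Rplp2 (-0.66 ± 1.19), Rpl35 (-0.29 ± 0.94) and Rpl6l (-0.28 ± 1.98). edgeR's adjusted p was 1 for each. Rps28, Rpl22 and Rplp2 had counts in all 16 wells, against 20.3%, 13.9% and 22.8% of single cells.

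The order of members by CPM, not divided by length, was close in 10-cell and single-cell sums of the same plate. There rho was 0.839, 0.793, 0.728 and 0.751 over 82 members that share the plate's libraries. Between plates, rho over 10-cell sums on the same scale ran from 0.619 to 0.818. Rps4x led per kilobase in the 10-cell sums of both vehicle plates with 1386 and 529.5 CPM per kb, and Rpl41 led on imiquimod plate 2 with 1251 CPM per kb.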

How the data were processed

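The deposited values were read counts per gene and well, in 1 matrix of 384 wells. Reads had been processed with Trimmomatic 0.39, STAR 2.7.3a and SAMtools 1.12 on mm39, per the submitters' processing notes. cDNA was primed with oligo dT and amplified for 24 cycles, and tagmented libraries for 12 cycles, per the labels' protocols. No counting tool or strand setting is given in the sources used here.

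Wells were grouped by their labels, and plates by the index in the title. Counts of kept wells were summed per plate and kind and tested with edgeR 4.0.16 (filterByExpr, TMM, quasi-likelihood, Benjamini-Hochberg over all genes, threshold 0.05). The SE is the log2 fold change over the root of its F statistic. DESeq2 1.42.0, limma 3.58.1, thinning, other filters and leaving out each plate were alternatives, and those on highest wells were chosen after seeing the data. Fits were tested on simulated counts that varied less between plates than the real sums. That test therefore does not measure how many real changes the fits could find. Transcript lengths came from GENCODE M21 by symbol. Shares and numbers of members were compared by exact permutation tests. Single cells and 10-cell wells were paired by the plate they share, which was the block. No kept well repeated another's counts.

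The members and gene lists were chosen with earlier results of these data known. Named were members of highest level, most extreme fold change, or most and least detection, with fixed stalk, 5S, paralog and other members. Some members that this rule names are not reported here.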

Additional observations from a re-analysis of the deposited data

Results flagged for a closer look

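In 1 of the 13 groups of control wells checked for a well far from the rest, a well stood apart. On imiquimod plate 2, 1 well of 10 cells had 11.65% of its counts in members (95% Wilson interval 11.6% to 11.7%), where the other 3 wells of 10 cells on that plate had 1.64% to 1.93%. Chance flags about 1 in 20 such groups. That well had 710021 counts and 4345 genes, the fewest of the 16 wells of 10 cells, and 14.9% of its counts in short non-member genes. The part of these values in its share was not tested. Without it, the mean difference in share between wells of 10 cells and single cells was 2.89 percentage points, and 52 of 82 members had a positive fold change.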

How the results depend on the processing

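With 2 plates per treatment and 47481 counts in the shallowest kept cell, a member without a count in a cell cannot be called absent there. The share difference between treatments was 1.48 points in summed counts, 2.20 as the mean over cells, 1.87 in cells of 1000 or more genes and 0.317 over all wells with a count, and members per cell differed by -0.50 after thinning to 100000 counts. No paired analysis was possible because plates of equal number in vehicle and imiquimod share only the number. The difference in members per cell was 0.25 when a member needed 5 counts. For treatment, DESeq2 called 3740 genes and 33 members, and no expression filter called 9 genes. limma gave 40 positive members with a median of -0.0011. For wells of 10 cells, DESeq2 called 974 genes and 2 members, and no expression filter called 3 genes. Leaving out each gene's highest well per plate, chosen after seeing the data, left 40 positive members with a median of -0.03. Of all genes, 38.2% were positive in that fit, with a median of -0.52. Without the replicate block, 0 genes were called, 76 of 82 members were positive and their median was 1.07, against 63 and 0.26 with the block. The causes were not tested.

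Leaving out 1 plate at a time gave 0 to 794 genes (794 without imiquimod plate 2, and genes were also called without imiquimod plate 1, 87 of them lower) and 0 to 10 members called for treatment, 75 to 81 positive members and medians of 1.03 to 2.48. The share difference ran from 0.102 to 1.84 points, members per cell from -8.75 to -1.75 and the subunit ratio from -0.244 to -0.0051. For wells of 10 cells, 0 genes and members were called. From 31 (without imiquimod plate 1) to 71 members were positive, with medians from -0.24 to 0.63. Medians of all genes ran from -0.50 to -0.20. The share difference ran from 0.701 to 3.92 points and that in members per well from 64.2 to 66.7.

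Several members with fold changes near 0 changed sign. For treatment, Rpl5 was 0.19 with size factors and with DESeq2, 0.11 in cells of 1000 or more genes and ran from -0.52 to 0.024 when plates were left out. Rpl22l1 was -0.52 in thinned cells, -0.59 without its highest wells, -0.15 with limma, and -0.40 to 0.60 when plates were left out. Rps27l was -0.70 thinned, -0.15 with limma and -8.36 (without imiquimod plate 2) to 1.51 when plates were left out. Rps24 was -0.37 with limma, and Rpl30 ran from -1.35 to 0.65 (without vehicle plate 2). For wells of 10 cells, Rpl22l1 was -2.04 and Rpl39 -0.18 without their highest wells. Without the block, Rpl35 was 0.54, Rps27l 0.20 and Rpl6l 0.44. Leaving out plates, Rpl35 ran from -0.84 to 0.16 (without imiquimod plate 2) and Rpl6l from -0.77 to 0.21 (without vehicle plate 2).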
